A study of Mus musculus with 18 samples.

Results

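The genes S100a8, S100a9, Stfa3, Fpr1, Fpr2 and Lcn2 were followed across RAW264.7 cells, a mouse macrophage-like cell line, with and without the histone demethylase gene Kdm7a. They are 6 of the 24411 gene symbols in the table, taken by symbol. The set was selected on the measured TPM of unstimulated and M1 libraries, because S100a8, Stfa3 and Fpr2 responded less to M1 stimulation in the knockout cells, so values from unstimulated and M1 libraries are given for all 6 as a description, without a test. S100a9 was listed at 0 in all 18 libraries and could not be described further; an exact 0 in such a table can also be a failed estimate. The other 5 genes passed the filter of 1 TPM (a share of all transcripts, corrected for length and scaled to a fixed total) in at least 3 libraries. They passed it through the M1 libraries, or, for S100a8, through the M1 and M2 libraries.

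The study made a Kdm7a-deficient RAW264.7 line with CRISPR/Cas9 and compared it with a line that received a control gRNA. Cells of each line were left unstimulated (M0), put under M1 conditions (2 ng/ml interferon-γ with 0.1 µg/ml lipopolysaccharide) or put under M2 conditions (IL-13, IL-10 and IL-4, each at 20 ng/ml, and human TGF-β1 at 2 ng/ml) for 48 h. Each of the 6 groups had 3 libraries of poly(A) RNA. Since 1 knockout line and 1 control line were used, other differences between the lines cannot be told apart from the knockout. Whether the replicates of a group were grown apart is not stated in the labels. The p-values therefore cover only how far these libraries spread, and that spread may be technical. In these bulk libraries, fewer cells with a transcript and less transcript per cell cannot be told apart.

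All 6 genes encode proteins best known from neutrophils and from activated macrophages. S100a8 and S100a9 are calcium-binding proteins that pair as calprotectin, which withholds zinc and manganese from microbes and acts as an alarmin on the receptor Tlr4 when released. Stfa3 is a stefin, an inhibitor of the lysosomal papain-like cathepsins inside cells. Fpr1 and Fpr2 are receptors that guide phagocytes to formylated peptides from bacteria and from damaged mitochondria. Fpr2 also binds annexin A1 and serum amyloid A. Lcn2 (lipocalin 2) captures bacterial siderophores and so withholds iron. Lipopolysaccharide acts through Tlr4 and NF-κB. Kdm7a removes methyl groups from histone H3.

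In control cells, Kdm7a itself had 11.1 ± 0.17 TPM (SD, n = 3) without stimulation, 29.7 ± 0.85 TPM after M1 and 23.3 ± 1.1 TPM after M2 treatment. In the knockout cells these levels were 3.37 ± 0.14, 7.49 ± 0.26 and 6.80 ± 0.88 TPM, so the transcript was lower in each condition but not absent (limma adjusted p = 4.36e-14 under M1). TPM keep no record of how deeply a library was read, so no counting interval can be given. Under M1, 50.3% of the 11548 tested genes differed between the lines (limma, adjusted p below 0.05), 33.4% being lower in the knockout. That split depended on scaling, with 1954 higher and 3857 lower as deposited against 2854 and 3066 with trimmed-mean (TMM) factors. These all-gene counts are the background of each list count between the lines under M1 below. From unstimulated to M1 control cells, the median gene changed by -0.38 on the log2 scale as deposited and by 0.08 with TMM factors.

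S100a8 was nearly absent without stimulation and under M1 reached a level in control cells well above that in knockout cells. The unstimulated control libraries read 0.37, 0 and 0 TPM and the unstimulated knockout libraries 0, 0.55 and 0 TPM. Under M1 the control libraries read 52.94, 62.04 and 55.72 TPM, and the knockout libraries 9.93, 11.63 and 12.6 TPM. The groups did not overlap, and the lowest control library was 4.2 times the highest knockout library. How many of all tested genes were without overlap under M1 was not counted, so its absence, here and below, is a description only. The M1 level in knockout cells was thus 20.0% of that in control cells (11.4 ± 1.4 against 56.9 ± 4.7 TPM, SD, n = 3).

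Stfa3 was listed at 0 in all unstimulated and M2 libraries of both lines. Under M1 it was 18.91, 18.75 and 15.06 TPM in control libraries and 1.17, 0.94 and 1.87 TPM in knockout libraries. This was the lowest relative level of the 5 genes, with 7.55% of the control level left in knockout cells (1.33 ± 0.48 against 17.6 ± 2.2 TPM, SD, n = 3). The lowest control library was 8.05 times the highest knockout library.

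The formyl peptide receptors were likewise listed at 0 outside M1. Fpr1 was the lowest expressed of the 5 genes, at 4.82, 4.91 and 5.79 TPM in control M1 libraries and 0.79, 1.27 and 1.1 TPM in knockout M1 libraries. Fpr2 was at 22.81, 25.74 and 25.45 TPM in control M1 libraries and at 9.12, 9.15 and 8.8 TPM in knockout M1 libraries. The libraries of the lines did not overlap for either receptor. The knockout kept 20.4% of the control level for Fpr1 and 36.6% for Fpr2, and per length Fpr2 was above Fpr1 in every M1 library of both lines.

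Lcn2 was the most abundant. Unstimulated control libraries were all listed at 0 and the unstimulated knockout libraries at 0, 0 and 0.39 TPM. Control M1 libraries read 814.26, 872.9 and 876.94 TPM, and knockout M1 libraries 287.01, 299.45 and 297.84 TPM. Without overlap between the lines, 34.5% of the control level was found in the knockout (294.8 ± 6.8 against 854.7 ± 35 TPM, SD, n = 3). Lcn2 thus still stood far above its unstimulated level in the knockout cells.

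**Figure D1:**
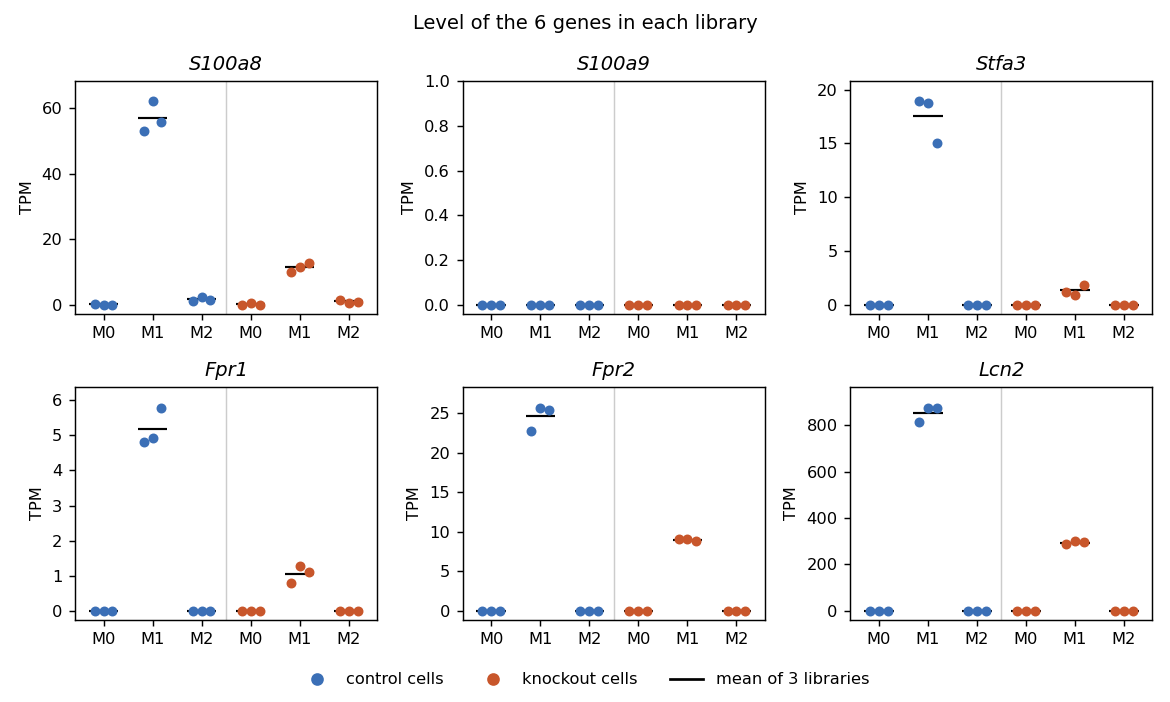
Level of each of the 6 genes in TPM (linear axis, scaled per gene) in every library, with unstimulated (M0), M1 and M2 libraries of control cells in blue and of knockout cells in orange; black bars are means of 3 libraries. Each of the 5 detected genes stands high under M1 and lower in knockout than in control cells, in the libraries that chose the genes, while S100a9 is at 0 in every library.

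On the log2 scale without a pseudocount, the knockout minus control difference under M1 was -3.78 ± 0.31 (SE) for Stfa3. It was -2.32 ± 0.12 for S100a8, -2.32 ± 0.22 for Fpr1, -1.54 ± 0.040 for Lcn2 and -1.45 ± 0.058 for Fpr2. S100a8 and Fpr1 thus lay together although their control levels were far apart. Per length, the order in control M1 cells was Lcn2, S100a8, Fpr2, Stfa3 and Fpr1, with no overlap between neighbours. The order was the same in knockout M1 cells, where only Stfa3 and Fpr1 overlapped. All 5 tested genes were higher under M1 in each line, where 89.1% of tested genes in control cells and 90.3% in knockout cells were called in either direction and 32.2% and 32% were called higher. All 5 were lower in the knockout under M1, against the 33.4% above, and all 5 had a smaller M1 response in the knockout, where 36% of all tested genes were called either way and 23.9% were called as smaller or more negative. These counts follow from how the genes were picked and are given as a description.

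The starts of the 5 detected genes lie on 4 chromosomes, so they share neither a locus nor, beyond the pair Fpr1 and Fpr2, a neighbour. In RefSeq (mouse build GRCm38.p6), S100a8 is at chr3:90669071-90670034 on the plus strand, with S100a9 at chr3:90692630-90695721 on the minus strand. Stfa3 is at chr16:36450537-36455392 and Lcn2 at chr2:32384637-32387739, both on the minus strand. Fpr1 (chr17:17876471-17883939, minus) and Fpr2 (chr17:17887824-17893952, plus) point away from each other. The 250 bases before each start are shown because these are the genes that were high under M1 and lower in the knockout together. They come from the RefSeq promoter table, 5′ to 3′ on the strand of the gene, at chr3:90668821-90669070, chr16:36455393-36455642, chr17:17883940-17884189, chr17:17887574-17887823 and chr2:32387740-32387989 in the order printed. Capitals mark matches, on either strand, to any of 7 short motifs that lie whole in the printed part.
S100a8: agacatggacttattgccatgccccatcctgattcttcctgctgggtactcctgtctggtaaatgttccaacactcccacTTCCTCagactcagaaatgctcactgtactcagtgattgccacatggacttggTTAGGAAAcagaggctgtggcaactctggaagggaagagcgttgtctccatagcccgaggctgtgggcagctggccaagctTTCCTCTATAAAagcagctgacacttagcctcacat
Stfa3: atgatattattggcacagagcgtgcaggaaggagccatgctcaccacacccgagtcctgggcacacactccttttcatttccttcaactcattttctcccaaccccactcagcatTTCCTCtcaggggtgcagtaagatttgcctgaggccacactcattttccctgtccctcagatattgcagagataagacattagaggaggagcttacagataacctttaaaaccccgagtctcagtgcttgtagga
Fpr1: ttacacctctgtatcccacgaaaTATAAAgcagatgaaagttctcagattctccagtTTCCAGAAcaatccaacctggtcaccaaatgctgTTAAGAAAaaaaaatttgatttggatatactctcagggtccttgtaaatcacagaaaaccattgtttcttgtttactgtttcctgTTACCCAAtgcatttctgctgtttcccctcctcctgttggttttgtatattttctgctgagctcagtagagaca
Fpr2: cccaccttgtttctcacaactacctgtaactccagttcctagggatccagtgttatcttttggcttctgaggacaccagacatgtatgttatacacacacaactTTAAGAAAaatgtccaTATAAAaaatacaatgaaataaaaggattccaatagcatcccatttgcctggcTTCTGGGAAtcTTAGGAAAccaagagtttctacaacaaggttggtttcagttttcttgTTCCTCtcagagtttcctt
Lcn2: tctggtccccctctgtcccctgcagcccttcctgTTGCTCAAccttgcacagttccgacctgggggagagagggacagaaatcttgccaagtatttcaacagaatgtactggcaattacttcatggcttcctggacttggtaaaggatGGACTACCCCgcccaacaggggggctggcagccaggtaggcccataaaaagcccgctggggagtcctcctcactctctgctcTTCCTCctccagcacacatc

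The motifs, with the share of all 32851 windows of 300 bases in the table that hold each, were C/EBP TTNNGNAA (40.7%), κB, GGG and CC with any 5 bases between (50.8%), ETS/PU.1 GAGGAA (28.3%), GAS TTCNNNGAA (8.3%), the ISRE core, GAAA and GAAA with any 2 bases between (3.44%), AP-1 TGANTCA (7.81%) and a TATA box TATAAA (13.6%). The S100a8 window held a TATA box starting at -30 from the transcription start, beside an ETS/PU.1 match at -36, with another ETS/PU.1 match at -170 and a C/EBP match at -117. Fpr1 held C/EBP matches at -193, -159 and -74, and a TATA box sequence at -227. Fpr2 held C/EBP matches at -146 and -66, another at -6 that spans the start, a TATA box sequence at -130, a GAS match at -77 and an ETS/PU.1 match at -19. Lcn2 held a C/EBP match at -216, a κB match at -102 and an ETS/PU.1 match at -20. Stfa3 held an ETS/PU.1 match at -135 and an AP-1 match at 30 after the start. The undetected S100a9 held C/EBP matches at -236 and -130 and a TATA box sequence at 1. No motif was found in all 5 windows of the detected genes, and the ISRE core was in none. These are matches of letters that many promoters hold, not sites of binding.

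**Figure D2:**
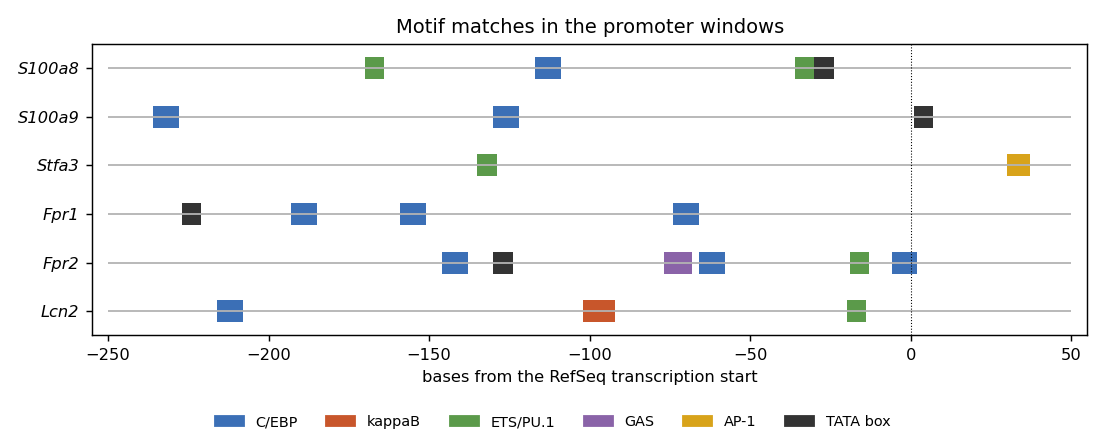
Positions of motif matches in the RefSeq promoter windows of the 6 genes, in bases from the transcription start (dotted line); coloured boxes are matches on either strand, drawn to their width. The windows differ in their matches, with a C/EBP match in each except that of Stfa3.

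The other S100 genes detected in these cells gave small differences between the lines, in either direction. Of 15 further S100 genes in the list, 7 were tested and 3 were listed at 0 throughout. Under M1, 3 of the 7 (S100a1, S100a13 and S100a11) were higher in the knockout, S100a6 was lower and 3 did not pass the test. The median difference of the 7 was 0.09 on the log2(TPM + 1) scale, against -0.06 for all tested genes. S100a1 differed by 0.32 (SE 0.065, limma adjusted p = 5.37e-04) and S100a13 by 0.31 (SE 0.061, limma adjusted p = 2.90e-04). S100a6 had 749.8 ± 36 TPM in control against 649.6 ± 34 TPM in knockout M1 libraries, a difference of -0.21 (limma adjusted p = 0.0159), and was no longer called with TMM factors (adjusted p = 0.108), nor without control M1 replicate 1 (0.0730) or knockout M1 replicate 3 (0.0740). S100a11 differed by 0.14 (limma adjusted p = 0.0482) and lost its call when any 1 M1 library was left out, with adjusted p from 0.0549 to 0.128. On the same scale the value for S100a8 was -2.23 (SE 0.19). S100a4, a marker of motile cells, fell under M1 in control cells from 6323 to 236 TPM (limma adjusted p = 5.22e-18) and differed by 0.09 between the lines under M1 (adjusted p = 0.357).

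Among 7 tested genes for alarmin receptors and their adaptors, 3 were higher and 2 lower in the knockout under M1, or 4 and 1 with TMM factors. Their median difference was 0.10, against -0.06 for all tested genes. Tlr4, the receptor for calprotectin and lipopolysaccharide, was lower, at 30.7 ± 1.2 TPM in control against 21.4 ± 0.94 TPM in knockout M1 libraries (difference -0.51, SE 0.049, limma adjusted p = 6.54e-08). Cd14, which hands lipopolysaccharide to Tlr4, was higher by 0.14 (2565 ± 42 against 2834 ± 51 TPM, limma adjusted p = 9.56e-04). Cd36, a scavenger receptor that binds calprotectin with fatty acid, was higher by 0.68 (142.8 ± 7.2 against 229.1 ± 9.5 TPM, limma adjusted p = 7.54e-08). Bsg, known as basigin and as a receptor for S100a9, was higher by 0.49 (limma adjusted p = 3.27e-11).

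Stefins related to Stfa3 were lower in the knockout under M1 as well. Of 16 further stefins and cystatins, 15 were in the table, 6 were listed at 0 throughout and 5 were tested. Against 33.4% of all tested genes called lower under M1, 4 of these 5 were lower in the knockout. The other was higher, and the median of the 5 was -0.86. The lower ones include Gm5416, which passed the filter only through its control M1 libraries. Gm5483 (RefSeq symbol Cstdc4, chr16:36184212-36188111) read 30.54, 34.07 and 31.76 TPM in control against 10.48, 7.79 and 9.33 TPM in knockout M1 libraries. The difference was -1.71 on the log2(TPM + 1) scale (SE 0.10, limma adjusted p = 5.38e-11). Gm5416 (RefSeq symbol Csta3, chr16:36210403-36217788) read 5.32, 1.86 and 3.12 TPM in control against 0.45, 0.48 and 0.48 TPM in knockout libraries (difference -1.52, SE 0.17). Because of how it passed the filter, this difference is given as a description, without a test. Both were listed at 0 in all M2 libraries, as Stfa3 was. The spread of Gm5416 over its control libraries was wide, and all 3 exceeded all 3 knockout libraries, as its passing the filter required.

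These stefins lie on chromosome 16 with Stfa3, and their transcripts are alike. The coding transcript of Stfa3 was 80% identical to that of Gm5483 and 85.3% to that of Gm5416 over the aligned bases. No stretch of 31 bases of Stfa3 occurred in a coding transcript of another gene, nor did any of S100a8 or Lcn2. For Gm5483, 47.9% of such stretches were shared, mostly with 2010005H15Rik, so its level is uncertain where reads were split. Between the receptors, 1.55% of Fpr1 stretches occurred in Fpr2. Of the Fpr2 stretches, 43% occurred elsewhere, most of them in the gene model Gm5966, so the level of Fpr2 carries the same doubt.

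Cystatins outside the cluster did not follow 1 direction. Cst7, an inhibitor of cathepsins found in endosomes, had 3.09 ± 0.54 TPM in control against 1.25 ± 0.13 TPM in knockout M1 libraries (difference -0.86, SE 0.099, limma adjusted p = 7.16e-07). Unlike the stefins, Cst7 fell by 1.80 under M1 in control cells (13.2 to 3.09 TPM, limma adjusted p = 7.90e-13). Cstb (stefin B) was lower, with a difference of -0.37 (689.8 against 533.5 TPM, limma adjusted p = 3.32e-06), with no difference called in its M1 response (0.01, adjusted p = 0.921). Cst3 (cystatin C) was higher by 0.67 (1724 ± 20 against 2741 ± 90 TPM, limma adjusted p = 1.12e-12).

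The cathepsins that stefins inhibit were mixed. Of 9 tested papain-like cathepsins, 7 rose and 2 fell under M1 in control cells, where 32.2% of all tested genes were called higher. In the knockout under M1, 3 were lower, 1 was higher and 5 did not pass the test, with a median of -0.06, as for all tested genes. The share of all tested genes called lower was 33.4%. Ctsl had 1079 ± 12 TPM in control against 468.6 ± 5.0 TPM in knockout M1 libraries (difference -1.20, SE 0.028, limma adjusted p = 3.64e-17). Its M1 response was also smaller in the knockout, by -0.78 (limma adjusted p = 3.48e-11). Ctsb was lower, with -0.47 (1428 ± 5.1 against 1029 ± 8.2 TPM, limma adjusted p = 1.82e-10), and Ctso was lower with -0.28 (limma adjusted p = 4.75e-04). Inhibitor Stfa3 and protease Ctsl were thus both lower in knockout cells under M1.

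**Figure D3:**
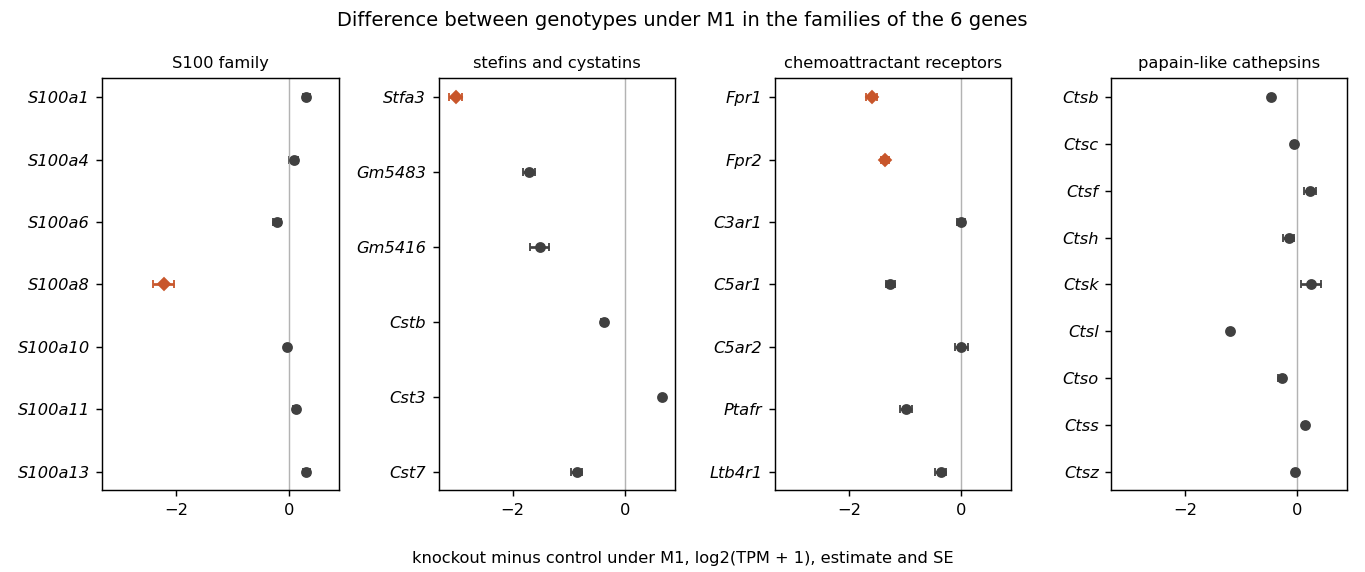
Difference between knockout and control cells under M1 on the log2(TPM + 1) scale, with its SE, for tested members of the S100, stefin and cystatin, chemoattractant receptor and cathepsin lists; orange diamonds are the genes described here and grey points their relatives. S100a8 lies alone at the left of the S100 genes drawn, whereas Stfa3 and the formyl peptide receptors have relatives below 0 beside them. S100a5, tested but at most 0.27 TPM in M1 libraries, is not drawn.

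Other receptors through which phagocytes sense chemoattractants were also followed. Of 11 further genes in this list, 10 were in the table, 5, among them Fpr3 and Fpr-rs4, were listed at 0 throughout and 5 were tested. Under M1, 3 of the 5 were lower in the knockout and 2 did not pass, with a median of -0.37. Among all tested genes, 33.4% were called lower. C5ar1, the receptor for complement fragment C5a, had 21.2 ± 1.2 TPM in control against 8.26 ± 0.33 TPM in knockout M1 libraries (difference -1.26, SE 0.079, limma adjusted p = 1.27e-10). Ptafr, the receptor for platelet-activating factor, had 22.2 ± 0.54 and 10.8 ± 0.75 TPM (difference -0.98, SE 0.10, limma adjusted p = 2.11e-07). Ltb4r1, the high-affinity receptor for leukotriene B4, was under 1 TPM in all M1 libraries and differed by -0.37 (limma adjusted p = 0.00528).

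Unlike Fpr1 and Fpr2, which were listed at 0 without stimulation, C5ar1 and Ptafr were lower in unstimulated knockout cells as well. C5ar1 had 13.8 TPM in control against 4.28 TPM in knockout cells (limma adjusted p = 3.78e-11), and Ptafr 6.27 and 2.61 TPM (limma adjusted p = 5.11e-07). For neither was a difference in the M1 response called, with 0.22 for C5ar1 (limma adjusted p = 0.129) and 0.03 for Ptafr (limma adjusted p = 0.890). C3ar1, the receptor for complement C3a, rose under M1 in control cells from 11.2 to 460.8 TPM (limma adjusted p = 1.59e-22) and reached 461.0 ± 2.7 TPM in knockout cells, a difference of 0.00 (SE 0.068, limma adjusted p = 0.996). Anxa1, the annexin that binds Fpr2, stood at 476.6 ± 12 and 483.0 ± 20 TPM under M1 (difference 0.02, SE 0.038, limma adjusted p = 0.717). Of 15 genes for ligands and signalling partners of these receptors, 5 were higher, 3 lower and 7 not called in the knockout under M1, or 8 and 2 with TMM factors. Arrb1 and Gng2 (an arrestin and a G protein subunit) were higher by 0.61 (limma adjusted p = 6.90e-08) and 0.43 (limma adjusted p = 3.48e-07). Plcb2, a phospholipase, was lower with -0.61 (limma adjusted p = 6.67e-07).

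Lcn2 belongs with genes of iron handling, which divided. Of 6 tested genes for its receptors, partners and iron handling, 2 were higher, 3 lower and 1 not called in the knockout under M1. Their median was -0.12, against -0.06 for all tested genes, of which 33.4% were called lower. Slc40a1, the iron exporter ferroportin, was at 20.9 ± 1.2 TPM in control against 6.78 ± 0.49 TPM in knockout M1 libraries (difference -1.49, SE 0.071, limma adjusted p = 1.76e-12). Without stimulation it was higher in the knockout, at 6.70 against 3.78 TPM (limma adjusted p = 4.79e-07). The knockout minus control difference in its M1 response was -2.18 (SE 0.10, limma adjusted p = 1.06e-11). Ftl1, the light chain of ferritin, was lower with -0.61 (limma adjusted p = 9.19e-12), while Fth1, the heavy chain, was higher by 0.13 (limma adjusted p = 0.00439). The transferrin receptor Tfrc differed by -0.21 (limma adjusted p = 0.00209).

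Acute phase genes and genes known to need IκBζ, the NF-κB cofactor encoded by Nfkbiz on which Lcn2 induction depends, were then compared. Of 9 tested besides Lcn2, 8 rose under M1 in control cells, where 32.2% of all tested genes were called higher. In the knockout under M1, 5 of the 9 were lower (4 with TMM factors), 1 higher and 3 not called, with a median of -0.26. Among all tested genes, 33.4% were called lower there. Ccl2, a monocyte chemokine, had 107.15, 121.55 and 113.99 TPM in control against 7.95, 10.09 and 8.64 TPM in knockout M1 libraries (difference -3.55, SE 0.13, limma adjusted p = 3.69e-14). Csf3, the growth factor of neutrophils, had 1521 ± 31 and 614.8 ± 14 TPM (difference -1.31, SE 0.20, limma adjusted p = 7.41e-05, but 0.163 with a pseudocount of 0.1 TPM). Saa3, a serum amyloid A, had 163.8 ± 6.9 and 86.2 ± 6.5 TPM (difference -0.92, SE 0.089, limma adjusted p = 6.35e-08). Il6, by contrast, had 1550 ± 59 and 1599 ± 23 TPM (difference 0.05, SE 0.26, limma adjusted p = 0.908). Nfkbiz had 214.6 ± 1.9 and 179.0 ± 0.80 TPM, a difference of -0.26 (limma adjusted p = 0.0314) whose call was lost with TMM factors (0.0899) and when any 1 M1 library was left out (0.0612 to 0.0739).

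Transcription factors that act at such genes differed in both directions. Of 15 tested, 12 rose under M1 in control cells, where 32.2% of all tested genes were called higher. In the knockout under M1, 8 of the 15 were higher, 3 lower and 4 not called, with a median of 0.13. Of all 11548 tested genes, 1954 were called higher there and 3857 lower. Cebpd, which encodes C/EBPδ, was lower, at 60.6 ± 1.7 TPM in control against 40.8 ± 1.8 TPM in knockout M1 libraries (difference -0.56, SE 0.064, limma adjusted p = 5.34e-07). The difference in its M1 response was not called (-0.21, adjusted p = 0.0844). Cebpb stood at 235.7 ± 30 and 233.9 ± 25 TPM (difference -0.01, SE 0.20, limma adjusted p = 0.981). Irf1, a factor of the interferon-γ response, was higher by 0.22 (limma adjusted p = 0.00312). Hif1a was higher by 0.46 (limma adjusted p = 5.26e-08). Klf4 was higher by 0.50 (4.92 ± 0.54 against 7.36 ± 0.51 TPM, limma adjusted p = 7.66e-07).

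**Figure D4:**
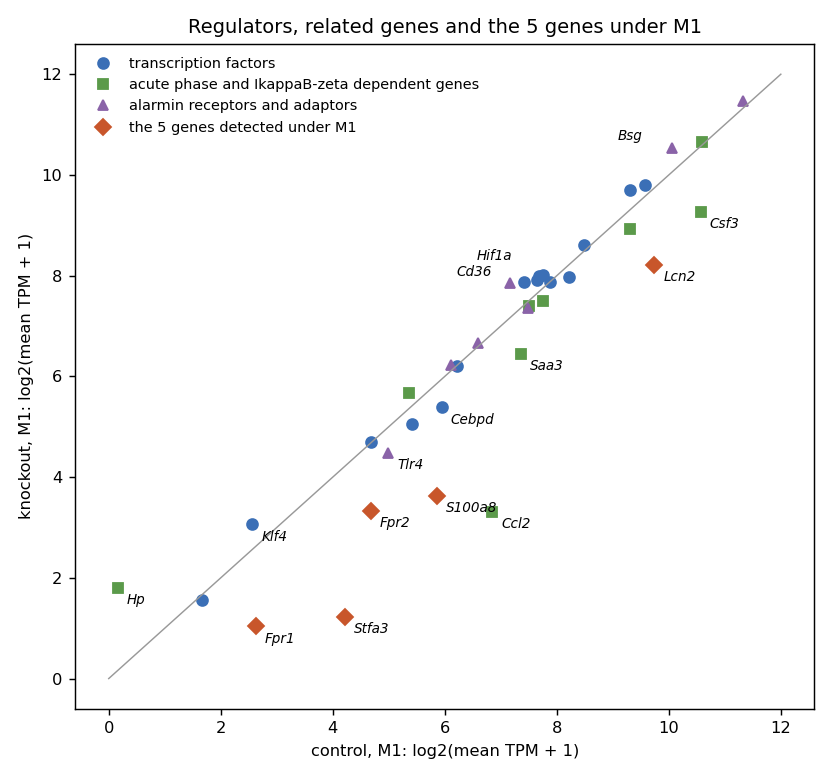
Mean level under M1 in control cells (horizontal) and knockout cells (vertical), each as log2(mean TPM + 1), for tested transcription factors (circles), acute phase genes (squares), alarmin receptors (triangles) and the 5 genes detected under M1 (diamonds); the line marks equal levels. All 5 diamonds, Ccl2 and Csf3 lie well below the line and Saa3 lies less far below, while most transcription factors lie on or just above it.

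The 5 genes were also placed among genes of like induction, a set defined after the values were seen and so not tested. These were 100 genes with under 1 TPM in all 12 libraries outside M1 and at least 5 TPM on average in control M1 cells. S100a8 was not among them because of its M2 values. Their median level in knockout M1 cells was 93.6% of control, with quartiles of 55% and 118.7%. Of the 100, 42 were called lower and 24 higher in the knockout under M1. Of all 11548 tested genes, 3857 (33.4%) were called lower and 1954 higher. The set asked for a level in control M1 cells only, so genes high only in knockout M1 cells could not enter. Its counts therefore lean toward lower calls and are no fair match to those of all genes. Counted from the lowest, Stfa3 was at rank 2, Fpr1 at 7, Lcn2 at 12 and Fpr2 at 14. The genes described here were picked from these same libraries, so their low ranks are a description only. Only Plk2, a polo-like kinase at 4.83% of control, was lower than Stfa3, and Ccl2 (7.79%) and Il1rn (9.31%) came next. Genes that M1 switched on from near 0 were therefore not all lower in the knockout.

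**Figure D5:**
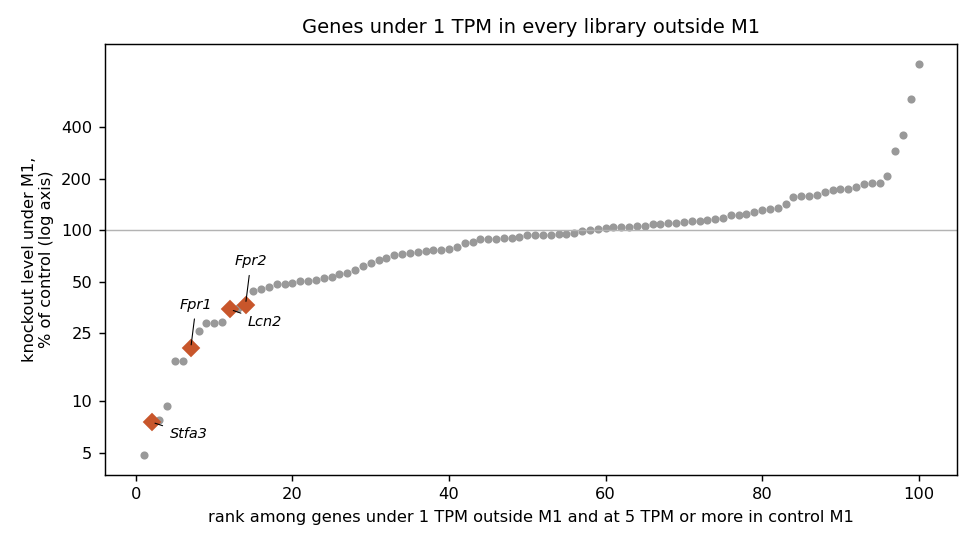
Level in knockout M1 cells as a percentage of control M1 cells (log axis) for the 100 genes with under 1 TPM in every library outside M1, ranked from the lowest; orange diamonds mark the 4 genes described here that belong to the set. These lie within the lowest 14, while the set as a whole is spread around a median of 93.6%. They were picked from these same libraries, so their ranks are a description only.

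Genes with the most similar pattern were sought by the root mean square difference between the 6 group means on the log2(TPM + 1) scale, each gene centred on its own mean. For S100a8 they were Gm5483 (0.478), Fpr2 (0.498) and Ccl12 (0.50). For Stfa3 they were Plk2 (0.355), Skint7 (0.428) and Ccl12 (0.432). For Fpr1 they were Sprr2g (0.0691), Krt23 (0.122) and Vegfc (0.131), all low genes, for which distances on this scale are small. Fpr2 was nearest to Csf2 (0.119), Hamp (0.131) and Gm5483 (0.134), and Lcn2 to Serpina3f (0.341), Csf3 (0.364) and Il27 (0.364). Csf2, a growth factor of macrophages and granulocytes, read 19.32, 20.13 and 23.15 TPM in control against 7.2, 8.36 and 6.48 TPM in knockout M1 libraries and, like Fpr2, was listed at 0 elsewhere. Ccl12, a monocyte chemokine, read 22.98, 24.55 and 25.42 against 3.2, 5.03 and 4.34 TPM.

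Most chromosomal neighbours, other than those of Lcn2 and than S100a6, Cd86 and Spaca6, were at or near 0. Beside S100a8 and S100a9, S100a7a reached at most 0.05 TPM in any group mean and Pglyrp4 was listed at 0. Stfa2 and Casr, the annotated neighbours of Stfa3 on either side, reached 0.097 TPM and 0. The next gene beyond Casr, Cd86, a costimulatory molecule, had 219.4 ± 8.3 TPM in control against 100.3 ± 2.3 TPM in knockout M1 libraries (difference -1.12, SE 0.065, limma adjusted p = 3.61e-11). Its M1 response, however, was larger in the knockout by 0.55 (limma adjusted p = 1.08e-04), and it was also lower there without stimulation, at 3.0 against 11.7 TPM (limma adjusted p = 3.71e-13). Beside the receptors, Has1 reached 0.20 TPM and Fpr3 and Fpr-rs4 were listed at 0. Spaca6, beyond Has1, read 2.71, 2.68 and 1.14 TPM in control M1 libraries and averaged 1.49 ± 0.56 TPM in knockout M1 libraries (difference -0.33, SE 0.20, limma adjusted p = 0.190). Beside Lcn2, 1110008P14Rik, Ciz1, Ptges2 and Slc25a25 reached group means of 71.9, 48.5, 25.5 and 30.5 TPM.

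Since the 6 genes are typical of neutrophils, markers of that cell type were measured beside them. Ly6g was not analysed here. Mpo, Elane, Ltf and Camp, which neutrophil precursors and neutrophils hold in granules, were at or below a mean of 0.30 TPM in every group. The 16 neutrophil markers in the table summed to 43.5 to 45.01 TPM in control M1 libraries and to 37.4 to 40.6 TPM in knockout M1 libraries, most of it Cebpe. Without Cebpe, the remaining 15 summed to 1.84 to 2.96 TPM in control and 6.60 to 7.38 TPM in knockout M1 libraries, with 10 and 6 of the genes at 0 throughout the group. The higher sum in knockout cells came mainly from Il1r2, the decoy receptor for interleukin 1. It read 0.64, 0.48 and 0.62 TPM in control against 4.97, 5.48 and 4.81 TPM in knockout M1 libraries (difference 1.95, SE 0.085). Il1r2 passed the filter only through knockout libraries, so this difference is given as a description, without a test. The 12 macrophage markers summed to 6837 to 6985 TPM in control and 6285 to 6494 TPM in knockout M1 libraries. Of 11 tested macrophage markers, 6 were lower and 3 higher in the knockout under M1. Their median was -0.21, against -0.06 for all tested genes, of which 33.4% were called lower. Cd68, a lysosomal glycoprotein, had 324.4 ± 14 TPM in control against 169.8 ± 4.8 TPM in knockout M1 libraries (difference -0.93, limma adjusted p = 7.50e-12). Lyz2, a lysozyme, had 1255 ± 56 and 845.0 ± 44 TPM (difference -0.57, limma adjusted p = 6.00e-10). Csf1r, the receptor for macrophage colony-stimulating factor, was higher, at 50.7 ± 2.8 against 32.9 ± 2.6 TPM (difference 0.61, limma adjusted p = 1.80e-08). Fcer1g, an Fc receptor subunit named after its values were seen, was higher too, at 3258 ± 49 against 2853 ± 8.4 TPM (difference 0.19, limma adjusted p = 1.01e-04). The part of these markers in the levels of the 5 genes was not tested.

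M2 conditions gave the measurement that the choice of the genes had not used. S100a8 rose slightly under M2 and stayed far below its M1 level. It read 1.24, 2.33 and 1.45 TPM in control against 1.46, 0.61 and 0.93 TPM in knockout M2 libraries, and these ranges overlapped. Relative to unstimulated cells it rose by 1.25 in control cells (SE 0.19) and by 0.77 in knockout cells (SE 0.19), all 3 M2 libraries exceeding the unstimulated ones in each line. Both responses share unstimulated libraries with the rule that chose the genes and so are given without a test. The knockout minus control difference under M2, which shares none, was -0.42 (SE 0.19, limma adjusted p = 0.116), and it passed only without knockout M2 replicate 1 (-0.58, adjusted p = 0.0380). The difference between the lines in the M2 response, which uses the unstimulated libraries and is also given without a test, was -0.48 (SE 0.27). S100a8 was thus higher under M2 in both lines. Of all tested genes, 65.4% in control cells and 72.9% in knockout cells were called in either direction in these responses, and 28.4% and 29.6% were called higher. Between the lines under M2, S100a8 was not called, where 30.9% of all tested genes were. In the difference in the M2 response, 14.1% of all tested genes were called.

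Lcn2 was barely measured under M2, at 0.51, 0.27 and 0 TPM in control against 0.12, 0.12 and 0 TPM in knockout libraries, and these ranges overlapped. It passed the filter only through its M1 libraries and so is given no test under M2. Stfa3, Fpr1 and Fpr2 were listed at 0 in all 6 M2 libraries and gave no comparison between the lines.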

How the data were processed

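Values are TPM per gene symbol as deposited by the authors, with the same total in each of the 18 libraries. The tool Trim Galore (no version) and the genome mm10 appear in the submitters' processing notes. No aligner, quantifier or annotation is named in these sources. How reads shared by similar genes were assigned is therefore unknown.

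Sample titles gave the groups and replicate numbers. The 11548 of 24411 symbols with at least 1 TPM in at least 3 libraries were tested on log2(TPM + 1) with limma 3.58.1 (R 4.3.3), with mean-variance trend and robust moderation, in 1 model with a mean for each of 6 groups. Tests were two-sided, p-values were adjusted by Benjamini-Hochberg over all tested genes, and genes were called below 0.05. Fold changes on this scale understate those of low genes. The design had foreseen raw counts first, with this test for a table of TPM only.

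The 6 genes and 11 lists of related genes were chosen with earlier results of these data known. Of each list, up to 3 called genes with the largest change were named per comparison, besides the 6 genes, Kdm7a, neutrophil markers, chromosomal neighbours and nearest patterns. Named outside that rule, after their values were seen, were Cst3, Cstb, Nfkbiz, Cebpb, S100a11, S100a4, C3ar1, Anxa1, Cd14, Fth1, Il6, Fcer1g and Irf1 between the lines under M1, and Plk2, Il1rn and Ccl2 among the genes seen only under M1. Of all symbols, 23194 matched RefSeq. The script was tested on simulated data. Alternatives were TMM and median-ratio factors computed on the TPM scale, no trend, no filter or one of 5 TPM, a pseudocount of 0.1 TPM, a fit of the compared groups only, a replicate block, and each library left out in turn.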

Additional observations from a re-analysis of the deposited data

How the results depend on the processing

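The values of the 5 detected genes in comparisons of unstimulated and M1 libraries kept their sign in all 306 alternatives and moved by more than the replicate spread in 50, mostly with a pseudocount of 0.1 TPM or another scaling. These alternatives refit the libraries that chose the genes, so the kept signs are a description and no further support. For S100a8 and Lcn2, 8 values under M2 were fitted, and those that use unstimulated libraries are descriptions. Of 124 alternatives to these 8, 111 kept direction and side of the threshold, 8 lost the call, 3 gained one and 2 reversed. Lcn2 was under 1 TPM in every library outside M1, so its fitted M2 values are not used as a test. All 8 lost calls were of the Lcn2 M2 response in control cells (0.31), over values of 0 to 0.51 TPM. Of the 3 gained calls, 1 was of S100a8 and the others were of Lcn2. The reversed ones were the Lcn2 M2 response in knockout cells, from -0.05 to 0.11 without knockout M0 replicate 3 and 0.0051 without knockout M2 replicate 3, values at the edge of detection (-0.13 to 0.11 over all fits that left out 1 library). For the other genes named, 1614 of 1657 alternatives kept both, 34 lost the call and 9 reversed. The reversals were of differences under M1 near 0 that were not called: Cebpb (0.057 with TMM and 0.060 with median-ratio factors, -0.11 to 0.073 over the fits that left out 1 library), C3ar1 (-0.015 to 0.017 over such fits) and Anxa1 (-0.015 to 0.039). The correlation of deviations between same-numbered libraries ran from -0.159 to 0.15 over 45 pairs of libraries, with a median of 0.018 and 7 pairs over 0.1. Over 90 pairs with different numbers the median was -0.011, with 6 pairs over 0.1. Any pairing by replicate number was thus weak, but its absence is not shown. With a replicate block, 5751 genes were called between the lines under M1 against 5811 without, 4141 against 4161 for the difference in the M1 response, and 3530 against 3570 between the lines under M2. Precision near 0 TPM is limited by an unknown depth.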

Other observations

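Relatives of the 5 genes differed between the lines under M2 as well, where the 5 genes themselves were near or at 0. Cd36 had 32.4 ± 2.5 TPM in control and 132.1 ± 5.7 TPM in knockout M2 libraries (SD, n = 3), a difference of 2.00 on the log2(TPM + 1) scale (SE 0.067, limma adjusted p = 2.30e-14). Cd14 was also higher in the knockout, at 290.9 ± 16 against 183.9 ± 1.0 TPM (difference 0.66, limma adjusted p = 8.44e-12). Of 7 tested alarmin receptors and adaptors, 5 were higher in the knockout under M2 and 2 were not called, or all 7 were higher with TMM factors. Ltb4r1, under 1 TPM in all M1 libraries, had 99.7 ± 6.1 TPM in control and 175.7 ± 4.3 TPM in knockout M2 libraries (difference 0.81, SE 0.10, limma adjusted p = 4.57e-06). C5ar1 was lower under M2 as it was under M1 (9.23 ± 0.75 against 5.41 ± 0.67 TPM, difference -0.68, limma adjusted p = 1.84e-06). C3ar1, which did not differ detectably under M1, was higher under M2 (79.9 ± 3.6 against 119.0 ± 13 TPM, difference 0.56, limma adjusted p = 4.32e-06).

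Cst3, higher in the knockout under M1, was lower there under M2, at 2246 ± 92 against 3921 ± 130 TPM (difference -0.80, limma adjusted p = 1.92e-13). Serpina3g, a protease inhibitor of the acute phase list, had 8.24 ± 0.55 TPM in control and 1.98 ± 0.27 TPM in knockout M2 libraries (difference -1.63, SE 0.072, limma adjusted p = 1.43e-12), while under M1 it stood at 180.9 ± 6.4 and 167.9 ± 4.2 TPM (difference -0.11, adjusted p = 0.231). Among neutrophil markers, Csf3r, the receptor for Csf3, was higher in knockout M2 libraries (3.80 ± 0.33 against 1.29 ± 0.17 TPM, difference 1.07, limma adjusted p = 2.11e-06). Lrg1 had 2.32 ± 0.24 TPM in knockout against 0.457 ± 0.099 TPM in control M2 libraries (difference 1.19). Lrg1 passed the filter only through knockout libraries, so its difference is given as a description, without a test.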
